A study of Homo sapiens with 9 samples.

Results

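The 10 genes described here encode proteins of actin filaments and of the muscle sarcomere, together with serum response factor (SRF), the transcription factor after which such genes are often grouped. They are MYPN, XIRP2, TAGLN, CNN1, CNN2, TPM1, TPM2, MYL9, ACTA2 and SRF. They were taken by gene symbol from the 58735 named rows of the deposited tables, where each symbol matched a single row. The levels come from RNA-seq of MDA-MB-231, a human triple-negative breast cancer cell line. By the series title all cells were kept in hypoxia for 6 h, and by the genotype labels 6 libraries are sgL1 and 3 are sgCtrl. The design text speaks of UFL1 or UFM1 knockout and the title of knockdown; sgL1 is taken here to target UFL1, and sgCtrl to be its control, although no label says so and none names a guide for UFM1. UFL1 is the ligase that attaches the small protein UFM1 to other proteins. Whether the cells are clones or pools is not given in the labels, and normoxic cells were not analysed here.

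Actin filaments give a cell its shape and, with myosin II, its tension. SRF binds a short DNA element, the CArG box, in front of many genes of this system. It works either with the MRTF coactivators, which enter the nucleus when free actin monomers become scarce, or with ternary complex factors such as ELK1, which respond to growth factor signalling. In smooth muscle, SRF with the cofactor myocardin switches on muscle forms of actin, calponin and transgelin. Mesenchymal carcinoma cells use many of the same filament proteins to spread and migrate.

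Of the 10 genes, 4 fell in sgL1 and 0 rose. MYPN fell 2.48-fold and XIRP2 2.12-fold, both from low levels, and MYL9 and CNN2 fell 1.22-fold and 1.13-fold. SRF, TPM1, TPM2, TAGLN and ACTA2 did not pass the test, and CNN1 had too few reads to be tested. The test was edgeR's quasi-likelihood test over 15242 genes with enough counts, at a Benjamini-Hochberg adjusted p under 0.05. By it 3.98% of all tested genes fell, 5.52% rose and 9.49% passed in either direction. At an unadjusted p under 0.05 the count was again 4 falls and 0 rises. By that looser threshold 3272 of the 15242 tested genes passed in either direction. DESeq2 and limma-voom also called 0 rises. The median log2 fold change was -0.12 over the 9 tested genes and 0.0023 over all tested genes. Every tested member held at least 11 counts in each library.

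**Figure D1:**
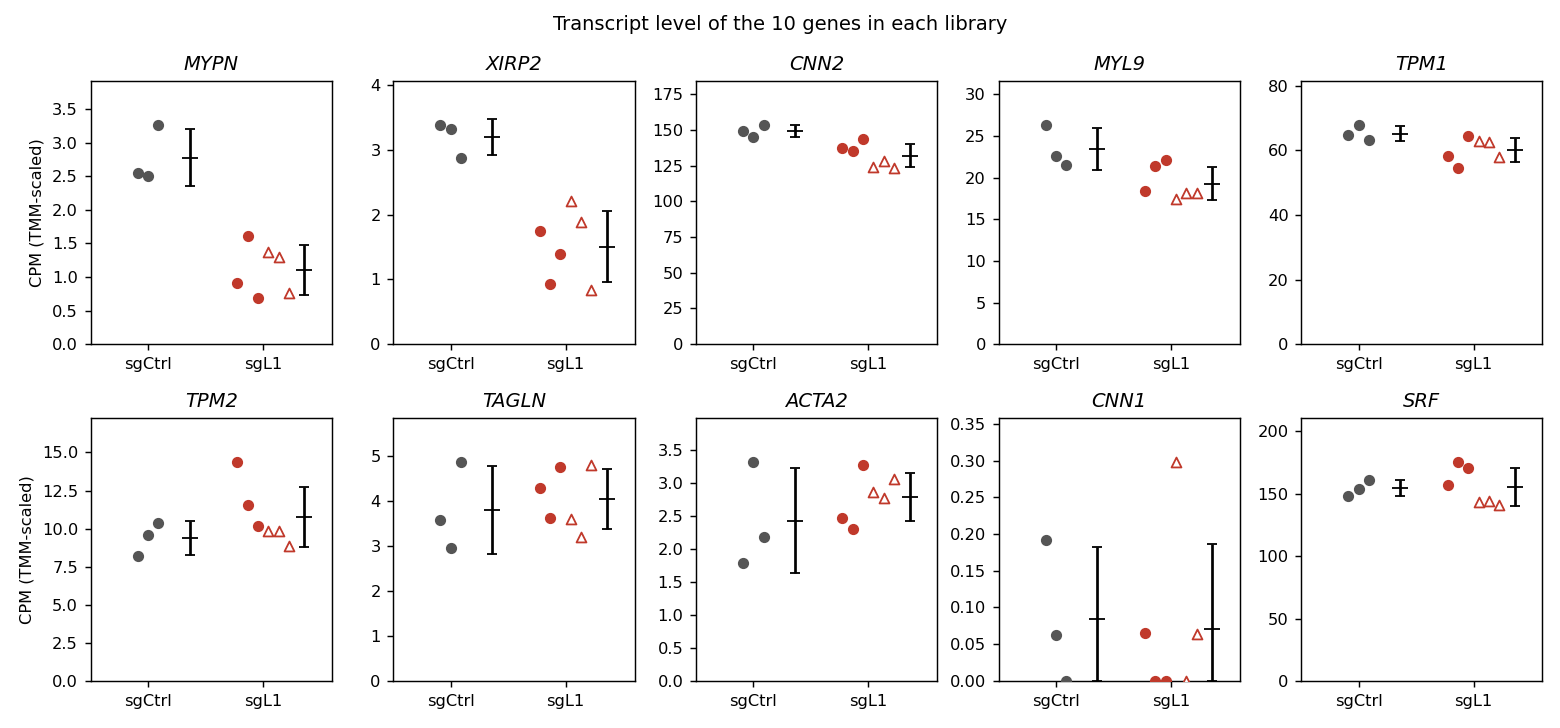
Transcript level (CPM, counts scaled to library size with TMM factors) of the 10 genes in each library, 3 sgCtrl in grey and 6 sgL1 in red. Circles are libraries numbered 1 to 3, triangles sgL1 libraries 4 to 6, and black marks the mean with the SD, whose lower end is cut at 0 for CNN1; MYPN, XIRP2 and CNN2 show no overlap between the groups.

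**Figure D2:**
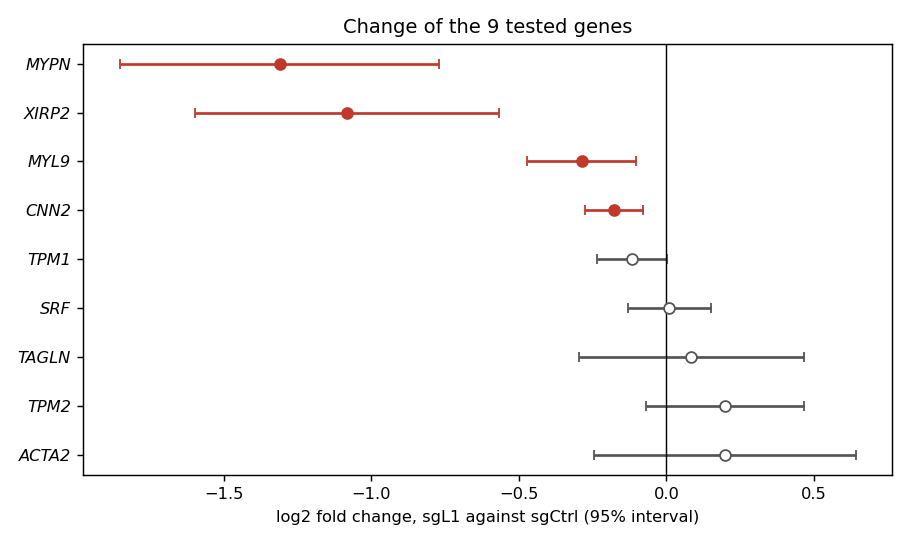
Log2 fold change of sgL1 against sgCtrl for the 9 tested genes, with 95% intervals. Filled red points passed edgeR's test at an adjusted p under 0.05 and the others did not; MYPN at -1.31 and XIRP2 at -1.08 lie farthest from 0.

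The libraries held 15420073 to 17038409 counts on named genes. A count of 0 allows up to 3 counts in a library, or 0.177 to 0.195 CPM, which covers counting error only. UFL1, the gene taken as the target, stood at 26.0 ± 1.18 CPM over the controls (SD, n = 3) and 17.5 ± 4.40 CPM over sgL1 (SD, n = 6). Libraries sgL1 1 to 3 averaged 13.7 ± 1.31 CPM (SD, n = 3) and libraries sgL1 4 to 6 averaged 21.4 ± 1.42 CPM (SD, n = 3), although the labels do not divide them. Over all 6, UFL1 did not pass the test, with a log2 fold change of -0.57 and an edgeR adjusted p of 0.126, although all 6 were below all 3 controls and an exact two-sided permutation test gave p = 0.0238. It fell by limma-voom (adjusted p = 0.00777), by edgeR with no expression filter (2.63e-05), without sgL1 4 (0.0389), and with sgL1 1 to 3 (1.24e-08) or 4 to 6 (0.0145) alone. UFM1 did not pass either (0.17, edgeR adjusted p = 0.0862), although 5 of the 6 sgL1 libraries were above every control. With sgL1 4 to 6 alone UFM1 rose, with a log2 fold change of 0.22 (edgeR adjusted p = 0.0131). The labels do not say whether the libraries of a group are separate cultures, and the p-values therefore measure only their spread, which may be technical. In bulk samples, fewer cells expressing a gene and less RNA per cell cannot be told apart.

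SRF (ENSG00000112658, chromosome 6, 43171299 to 43181507, plus strand, GRCh38) is the transcription factor of the group. It measured 148.0, 154.1 and 160.9 CPM in the controls, and 140.9, 150.6 and 175.8 CPM at the lowest, median and highest of sgL1. Libraries sgL1 2 and 3 were above every control and libraries sgL1 4, 5 and 6 below every one, so the groups overlap. The log2 fold change was 0.010 with an SE of 0.066 and a 95% interval from -0.13 to 0.15, and edgeR's adjusted p was 0.961, and an exact two-sided permutation test over libraries gave p = 0.988. Libraries sgL1 1 to 3 averaged 168.0 ± 9.73 CPM (SD, n = 3) and libraries sgL1 4 to 6 averaged 142.8 ± 1.74 CPM (SD, n = 3). Against the same controls, the former alone gave 0.12 (edgeR adjusted p = 0.0744) and the latter alone -0.11 (edgeR adjusted p = 0.0700). Neither passed, and the difference between them was not tested. Within sgL1 the coefficient of variation was 9.74%, where counting alone gives 2.00%.

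The coactivators of SRF were at like levels in both groups. MRTFA stood at 3.42 ± 0.314 FPKM over the controls (SD, n = 3) and 3.43 ± 0.211 FPKM over sgL1 (SD, n = 6). FPKM, the authors' level scaled to gene length and library size, is used wherever genes are compared with each other. MRTFA gave a log2 fold change of 0.0071 (edgeR adjusted p = 0.979) and MRTFB -0.025 (edgeR adjusted p = 0.890), and both signs turned when single libraries were left out. MYOCD, which encodes myocardin, had 3 counts over the 3 controls and 1 over the 6 sgL1 libraries.

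Promoters are printed for SRF and CNN2, which hold CArG boxes, for ACTA2, which holds close variants, and for MYPN and XIRP2, which fell most. The sequences are from RefSeq (GRCh38.p14) and run from 250 bases before an annotated start site to 50 after it. Of the 10 genes 8 had an entry, with 12 start sites, and TAGLN and MYL9 had none. The motifs searched were the CArG box (CC, 6 bases of A or T, GG), its variant, and CATTCC, the core bound by TEAD factors. In the variant, 1 of the 6 inner bases, at any position, is G or C. The motifs were chosen after the promoters and the results had been seen. Both strands were searched, a CArG form reads as such on both and was counted once, and no matches overlapped. The box was in 1.29% of 35116 promoters of this length, the variant in 6.94% and CATTCC in 14.0%. Counted by window, as these shares are, 2 of the 12 held the box, 1 the variant and 2 CATTCC. Counted by gene, the numbers were the same, out of 8. Capitals mark the matches. In SRF (chr6:43171019-43171318, plus strand) they are 2 boxes beginning 30 and 10 bases before the start, and in CNN2 (chr19:1026358-1026657, plus strand) 1 box beginning 89 bases before it. In ACTA2 at its inner start site (chr10:88952724-88953023, minus strand) they are 2 variants at 121 and 71 bases and CATTCC, on the opposite strand, at 183 bases. In MYPN (chr10:68109238-68109537, plus strand) they are CATTCC at 197 bases and, on the opposite strand, at 53 bases. The whole MYPN window lies inside the gene's annotated span, which begins at base 68106117. The window of XIRP2 (chr2:166888230-166888529, plus strand) had no match, which says only that these letters are not there. SRF, ACTA2 and XIRP2 had 2 start sites each. The window that is not printed held no match in any of them. Gene tables do not show which start site the cells used.
SRF: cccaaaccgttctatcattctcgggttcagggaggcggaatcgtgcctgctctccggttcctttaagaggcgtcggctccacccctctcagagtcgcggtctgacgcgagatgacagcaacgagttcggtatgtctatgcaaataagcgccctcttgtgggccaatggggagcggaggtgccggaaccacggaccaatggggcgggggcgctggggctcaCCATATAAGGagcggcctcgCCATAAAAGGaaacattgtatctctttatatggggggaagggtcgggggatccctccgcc
CNN2: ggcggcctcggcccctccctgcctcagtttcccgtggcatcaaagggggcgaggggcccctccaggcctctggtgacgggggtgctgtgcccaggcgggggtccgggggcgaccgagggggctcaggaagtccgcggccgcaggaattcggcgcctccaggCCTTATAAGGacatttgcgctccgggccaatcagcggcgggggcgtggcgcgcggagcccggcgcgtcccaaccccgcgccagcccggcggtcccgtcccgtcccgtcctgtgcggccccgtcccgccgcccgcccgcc
ACTA2: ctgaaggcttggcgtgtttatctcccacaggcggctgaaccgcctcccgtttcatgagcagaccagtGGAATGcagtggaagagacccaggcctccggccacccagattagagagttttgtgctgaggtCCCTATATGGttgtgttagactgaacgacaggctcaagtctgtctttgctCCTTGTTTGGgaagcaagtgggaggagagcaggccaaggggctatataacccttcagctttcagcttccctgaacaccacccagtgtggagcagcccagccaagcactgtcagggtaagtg
MYPN: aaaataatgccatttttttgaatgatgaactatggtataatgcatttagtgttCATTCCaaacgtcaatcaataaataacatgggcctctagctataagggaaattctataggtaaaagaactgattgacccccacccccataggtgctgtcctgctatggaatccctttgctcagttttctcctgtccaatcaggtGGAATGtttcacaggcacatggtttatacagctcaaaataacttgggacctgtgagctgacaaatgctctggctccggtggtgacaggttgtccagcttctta
XIRP2: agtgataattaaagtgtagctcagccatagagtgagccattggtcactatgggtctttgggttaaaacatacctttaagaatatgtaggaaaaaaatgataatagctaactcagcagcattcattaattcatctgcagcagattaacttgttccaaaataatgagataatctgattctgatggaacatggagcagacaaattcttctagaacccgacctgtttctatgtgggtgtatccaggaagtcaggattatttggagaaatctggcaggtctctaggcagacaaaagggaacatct

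MYPN (ENSG00000138347, chromosome 10, 68106117 to 68212017, plus strand, GRCh38) encodes myopalladin, which in muscle binds alpha-actinin and nebulin at the Z-disc of the sarcomere. It measured 2.56, 2.51 and 3.27 CPM in the controls, and 0.695, 1.10 and 1.62 CPM at the lowest, median and highest of sgL1. All 6 sgL1 libraries were below all 3 controls, as were those of 6.4% of all tested genes; 3 of the 10 genes had this pattern, and 0 had the opposite one, which 7.61% of tested genes had. The means were 2.78 ± 0.424 CPM over the controls (SD, n = 3) and 1.11 ± 0.373 CPM over sgL1 (SD, n = 6). The log2 fold change was -1.31 with an SE of 0.26 and a 95% interval from -1.85 to -0.77, and edgeR's adjusted p was 9.80e-04. The exact two-sided permutation p of 0.0119 is the smallest that 9 libraries in these groups can give. By size it was number 9 of the 606 falls. The controls held 40 to 51 counts and sgL1 11 to 26, so counting alone gives a coefficient of variation of 23.6% in sgL1, beside 33.6% observed. Libraries sgL1 1 to 3 averaged 1.07 ± 0.483 CPM (SD, n = 3) and libraries sgL1 4 to 6 averaged 1.15 ± 0.331 CPM (SD, n = 3).

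XIRP2 (ENSG00000163092, chromosome 2, 166888487 to 167259753, plus strand, GRCh38) encodes an actin-binding protein with Xin repeats, known from muscle where filaments attach to membranes. It measured 3.39, 3.33 and 2.88 CPM in the controls, and 0.831, 1.57 and 2.21 CPM at the lowest, median and highest of sgL1. Again the groups did not overlap. The means were 3.20 ± 0.276 CPM over the controls (SD, n = 3) and 1.50 ± 0.548 CPM over sgL1 (SD, n = 6). edgeR gave a log2 fold change of -1.08 (SE 0.25, 95% interval from -1.60 to -0.57) with an adjusted p of 0.00425, and an exact two-sided permutation test over libraries gave p = 0.0238. It was number 21 among the falls, of which 25 were at least 2-fold (0.164% of tested genes), MYPN and XIRP2 among them. The controls held 45 to 53 counts and sgL1 13 to 37, and in sgL1 the coefficient of variation of 36.5% was above the 20.3% of counting alone. Its relative XIRP1 had 3 counts over the controls and 3 over sgL1.

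The calls of MYPN and XIRP2 held with any 1 library left out, where edgeR's adjusted p ran from 3.70e-04 to 0.0185 and from 8.32e-04 to 0.0333. Both were lost with limma on FPKM. On log2(FPKM + 1) MYPN gave -0.27 (limma adjusted p = 0.0757) and XIRP2 -0.16 (limma adjusted p = 0.216), a scale on which folds of such low genes are understated. On log2(FPKM + 0.1) MYPN gave -0.96 (limma adjusted p = 0.0928) and XIRP2 -0.70 (limma adjusted p = 0.252). The calls of CNN2 and MYL9 were lost on both scales too, CNN2 with a log2 fold change of -0.18 on the first (limma adjusted p = 0.158). These FPKM fits had no expression filter and took in 31481 rows, where the main test had 15242. Among genes averaging 1 FPKM or more, log2(FPKM + 1) gave -0.18 for CNN2 (limma adjusted p = 0.0522). MYL9 gave -0.25 there (limma adjusted p = 0.0812). edgeR with no expression filter, also on 31481 rows, kept all 4 calls. The cause of the losses on FPKM was not tested.

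Calponins bind actin filaments and damp the myosin motor. CNN2 (ENSG00000064666, chromosome 19, 1026581 to 1039068, plus strand, GRCh38), found in many non-muscle cells, measured 149.2, 144.8 and 153.5 CPM in the controls, and 123.3, 131.8 and 143.3 CPM at the lowest, median and highest of sgL1. The groups did not overlap, with the highest sgL1 library, sgL1 3, just under the lowest control, sgCtrl 2. The means were 149.2 ± 4.35 CPM over the controls (SD, n = 3) and 131.9 ± 7.91 CPM over sgL1 (SD, n = 6). edgeR gave a log2 fold change of -0.18 (SE 0.048, 95% interval from -0.28 to -0.078) with an adjusted p of 0.0162, and an exact two-sided permutation test over libraries gave p = 0.0238. The call was lost without sgCtrl 1 (edgeR adjusted p = 0.0659) or sgCtrl 3 (edgeR adjusted p = 0.126). Libraries sgL1 1 to 3 averaged 138.5 ± 4.25 CPM (SD, n = 3) and did not pass alone (edgeR adjusted p = 0.0917), while sgL1 4 to 6 averaged 125.3 ± 2.72 CPM (SD, n = 3) and passed (edgeR adjusted p = 9.40e-06); the difference between these sets was not tested.

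CNN1, the smooth muscle calponin (ENSG00000130176, chromosome 19, 11538717 to 11550323, plus strand, GRCh38), was close to the limit of detection. It had 3, 1 and 0 counts in the controls and between 0 and 5 in sgL1, with a sum of 7. No difference was detectable at this depth. CNN3, the remaining calponin, fell: it stood at 96.0 ± 1.96 FPKM over the controls (SD, n = 3) and 81.7 ± 3.64 FPKM over sgL1 (SD, n = 6), with a log2 fold change of -0.23 (edgeR adjusted p = 2.60e-04).

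MYL9 (ENSG00000101335, chromosome 20, 36541484 to 36551447, plus strand, GRCh38) encodes a regulatory light chain of myosin II, whose phosphorylation switches the motor on. It measured 26.3, 22.5 and 21.5 CPM in the controls, and 17.4, 18.3 and 22.1 CPM at the lowest, median and highest of sgL1. Of the 6 sgL1 libraries 5 were below every control, and sgL1 3 lay above sgCtrl 3. The means were 23.5 ± 2.53 CPM over the controls (SD, n = 3) and 19.2 ± 1.97 CPM over sgL1 (SD, n = 6). edgeR gave a log2 fold change of -0.29 (SE 0.090, 95% interval from -0.47 to -0.10) with an adjusted p of 0.0411, and an exact two-sided permutation test over libraries gave p = 0.0357. Leaving out single libraries ended the call in 6 of 9 cases (sgCtrl 1, sgCtrl 2, sgL1 1, sgL1 4, sgL1 5, sgL1 6), and the adjusted p reached 0.315 without sgCtrl 1. Libraries sgL1 1 to 3 alone gave an adjusted p of 0.208 and sgL1 4 to 6 alone 0.00138 by edgeR, again with no test of the difference. The gene lies wholly within DLGAP4-AS1 on the opposite strand, which stood at 1.46 CPM in the controls and 1.33 CPM in sgL1. The related light chain genes did not pass: MYL12A gave -0.13 (edgeR adjusted p = 0.140) and MYL12B -0.055 (edgeR adjusted p = 0.542).

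Tropomyosins lie along the actin filament and set which proteins may bind it. TPM1 (ENSG00000140416, chromosome 15, 63042632 to 63071915, plus strand, GRCh38) measured 64.6, 67.9 and 63.1 CPM in the controls, and 54.6, 60.5 and 64.4 CPM at the lowest, median and highest of sgL1. Of the 6 sgL1 libraries 5 were below every control. On the log2 scale the change was -0.12 (SE 0.057, 95% interval from -0.23 to 0.00063), at an adjusted p of 0.236 by edgeR, so it did not pass; an exact two-sided permutation test over libraries gave p = 0.0595. TPM2 (ENSG00000198467, chromosome 9, 35681992 to 35690121, minus strand, GRCh38) measured 8.18, 9.61 and 10.4 CPM in the controls, and 8.89, 10.01 and 14.4 CPM at the lowest, median and highest of sgL1. Libraries sgL1 1 and 2 were above every control and the other 4 within their range. The log2 fold change was 0.20 with an SE of 0.13 and a 95% interval from -0.070 to 0.47, and edgeR's adjusted p was 0.419. Without sgL1 1 the log2 fold change of TPM2 was 0.10. TPM3 and TPM4, more abundant at 82.2 and 86.3 FPKM in the controls, gave 0.040 and 0.058 and did not pass. Tropomyosin genes are alike in sequence, and counting may have split or lost reads that match more than 1 of them.

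TAGLN (ENSG00000149591, chromosome 11, 117199321 to 117204782, plus strand, GRCh38) encodes transgelin, or SM22-alpha, an actin cross-linker and early marker of smooth muscle. It measured 3.58, 2.95 and 4.87 CPM in the controls, and 3.19, 3.94 and 4.80 CPM at the lowest, median and highest of sgL1. All sgL1 libraries lay within the range of the controls. On the log2 scale the change was 0.084 (SE 0.19, 95% interval from -0.30 to 0.47), at an adjusted p of 0.855 by edgeR, and the log2 fold change was -0.068 or 0.30 without sgCtrl 2 or sgCtrl 3. It overlaps PCSK7 on the opposite strand by 446 bases, at 57.4 CPM in the controls and 56.2 CPM in sgL1; since the sources do not say whether counting used strand, reads there cannot be told apart. Of its relatives, TAGLN2 rose, and TAGLN3 did in the main test. TAGLN2 stood at 224.5 ± 5.62 FPKM over the controls (SD, n = 3) and 261.7 ± 6.46 FPKM over sgL1 (SD, n = 6), with a log2 fold change of 0.22 (edgeR adjusted p = 6.54e-05). TAGLN3 gave 0.35 (edgeR adjusted p = 0.0478). Its call ended in 7 of 9 cases when 1 library was dropped (sgCtrl 1, sgCtrl 2, sgCtrl 3, sgL1 1, sgL1 2, sgL1 4, sgL1 5). The call was also lost under the RLE, upper-quartile and library-size scalings, and with DESeq2, limma-voom and limma on FPKM. It was lost too at an adjusted p under 0.01 and with sgL1 4 to 6 alone.

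ACTA2 (ENSG00000107796, chromosome 10, 88935074 to 88991339, minus strand, GRCh38) encodes smooth muscle alpha-actin, the usual marker of myofibroblasts. It measured 1.79, 3.33 and 2.18 CPM in the controls, and 2.30, 2.82 and 3.28 CPM at the lowest, median and highest of sgL1. All 6 sgL1 libraries lay within the range of the controls. On the log2 scale the change was 0.20 (SE 0.22, 95% interval from -0.24 to 0.64), at an adjusted p of 0.667 by edgeR. It was 0.016 without sgCtrl 1 and 0.49 without sgCtrl 2 (edgeR adjusted p = 0.984 and 0.315). On the opposite strand it overlaps STAMBPL1, ACTA2-AS1 and FAS, at 71.0, 1.78 and 7.36 CPM in the controls. The other muscle actins ACTA1, ACTC1 and ACTG2 summed to 6 to 8 counts over a group.

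The cytoplasmic actins were far more abundant. ACTG1 fell, from 1508 ± 30.5 FPKM over the controls (SD, n = 3) to 1253 ± 15.2 FPKM over sgL1 (SD, n = 6), with a log2 fold change of -0.27 (edgeR adjusted p = 2.46e-07). ACTB gave -0.12 (edgeR adjusted p = 0.0116), a call lost without sgCtrl 1 or sgCtrl 3. Actin genes and their pseudogenes are near-identical in their coding parts, so these counts are uncertain.

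Per length, the order in the controls was CNN2 (40.6 FPKM), SRF (36.4), MYL9 (8.24), TPM1 (5.02), TPM2 (2.87), TAGLN (0.962), ACTA2 (0.810), MYPN (0.390), XIRP2 (0.243) and CNN1 (0.0291 FPKM). MYL9, TAGLN and ACTA2 overlap genes on the opposite strand, and the use of strand in counting is not known. Its effect on the order was not tested. Among neighbours in this order, only the ranges of TAGLN and ACTA2 overlapped over the controls. In sgL1 those of CNN2 and SRF, TPM1 and TPM2, TAGLN and ACTA2, MYPN and XIRP2, and XIRP2 and CNN1 overlapped.

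**Figure D3:**
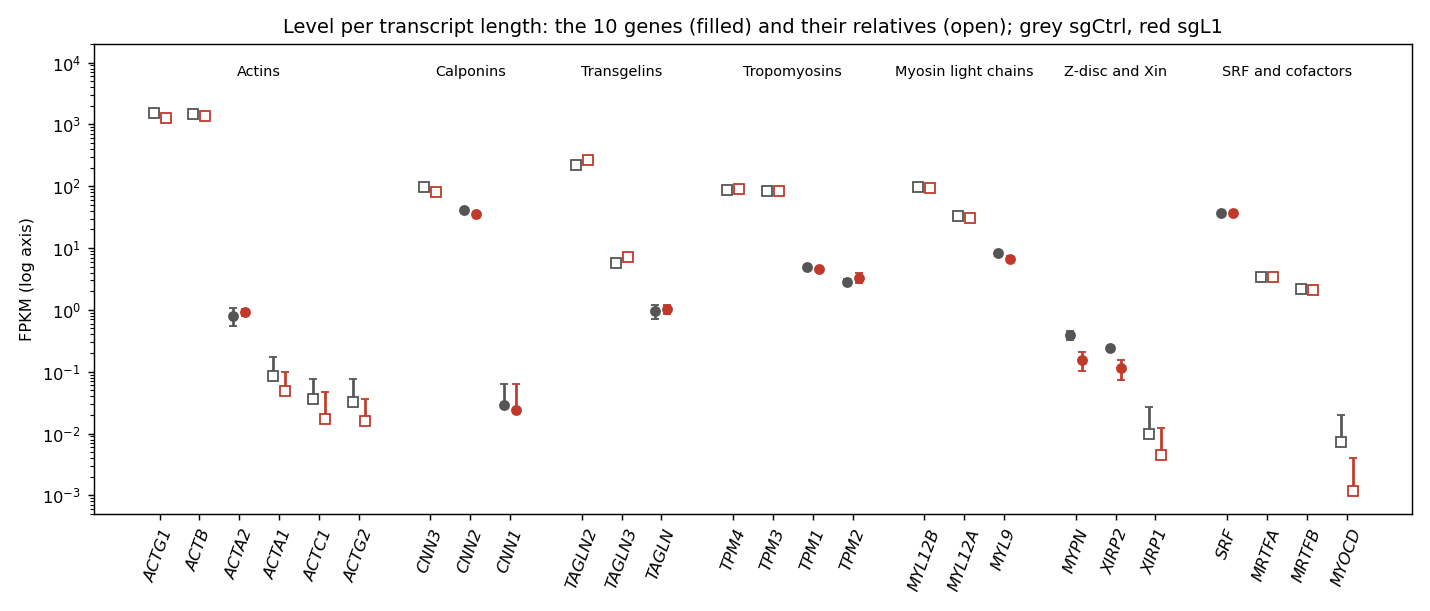
Mean level (FPKM, log axis) of the 10 genes (filled circles) and their relatives (open squares) in sgCtrl (grey, 3 libraries) and sgL1 (red, 6 libraries). Bars are the SD, with the lower bar left out where the SD is not smaller than the mean; ACTA2, TAGLN and CNN1 lie far below ACTB and ACTG1, TAGLN2, and CNN2 and CNN3.

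Among 45 tested of 51 listed genes of actin filaments and stress fibres, 14 fell (31.1%) and 2 rose (4.44%). Of all tested genes 3.98% fell and 5.52% rose, and the list was chosen with earlier results of these data known. The list's median log2 fold change was -0.056. VCL, which encodes vinculin of focal adhesions, fell from 461.0 ± 10.5 CPM over the controls (SD, n = 3) to 339.9 ± 13.1 CPM over sgL1 (SD, n = 6), a log2 fold change of -0.44 (edgeR adjusted p = 2.23e-09). PDLIM5, a scaffold of Z-discs and stress fibres, gave -0.46 (edgeR adjusted p = 2.42e-08). MYLK, the kinase that phosphorylates light chains such as MYL9, fell from 21.5 ± 1.83 CPM over the controls (SD, n = 3) to 11.6 ± 1.95 CPM over sgL1 (SD, n = 6), with -0.89 on the log2 scale (edgeR adjusted p = 1.64e-06). Besides ACTG1, ACTB and CNN3, others that fell were FLNC, CALD1, PDLIM1, PALLD, FHL2, LPP and TMOD3, and those that rose were TAGLN2 and TAGLN3. With single libraries left out, PDLIM1 and LPP lost their calls in 6 of 9 cases each, CALD1 in 5, TMOD3 in 2 and PALLD in 1, while FLNC and FHL2 lost theirs in 0. The falls numbered 8 without sgCtrl 3, and the rises 1 without any 1 of the controls or of sgL1 1, 2 and 5.

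Sarcomere genes other than MYPN and XIRP2 were mostly near 0: of 51 listed, 28 never exceeded 3 counts in a library, 14 of them having none, and 14 were tested. ANKRD1, in muscle a stretch-sensitive partner of titin and also known as a target of the coactivators YAP and TAZ, fell from 1203 ± 18.3 CPM over the controls (SD, n = 3) to 827.5 ± 37.3 CPM over sgL1 (SD, n = 6), a log2 fold change of -0.54 (edgeR adjusted p = 1.38e-11). The other 13 did not pass, with values from -0.95 to 0.49 and a list median of 0.031. For the 0 rises by edgeR, 0 were higher at an unadjusted p under 0.05 and DESeq2 called 0. At that unadjusted threshold 2 of the 14 were lower, ANKRD1 being 1 of them.

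Early-response genes known as SRF targets went both ways: of 16 tested, 6 rose (37.5%) and 3 fell (18.8%), with a median of 0.22. Of all tested genes 5.52% rose and 3.98% fell, and this list too was chosen with earlier results known. MCL1, a survival factor, rose, from 642.4 ± 9.27 CPM over the controls (SD, n = 3) to 827.2 ± 12.7 CPM over sgL1 (SD, n = 6), with 0.36 on the log2 scale (edgeR adjusted p = 7.52e-09). The other 5 that rose were JUNB, EGR3, IER2, IER3 and FOSB, of which FOSB lost its call in 3 of 9 cases with a library left out, IER3 in 2, EGR3 and IER2 in 1 each and JUNB in 0. Those that fell were CTGF (-0.54), CYR61 (-0.27) and KLF6 (-0.21), of which CTGF and CYR61 encode matricellular proteins that YAP and TAZ also control. The rises numbered 3 without sgCtrl 2.

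**Figure D4:**
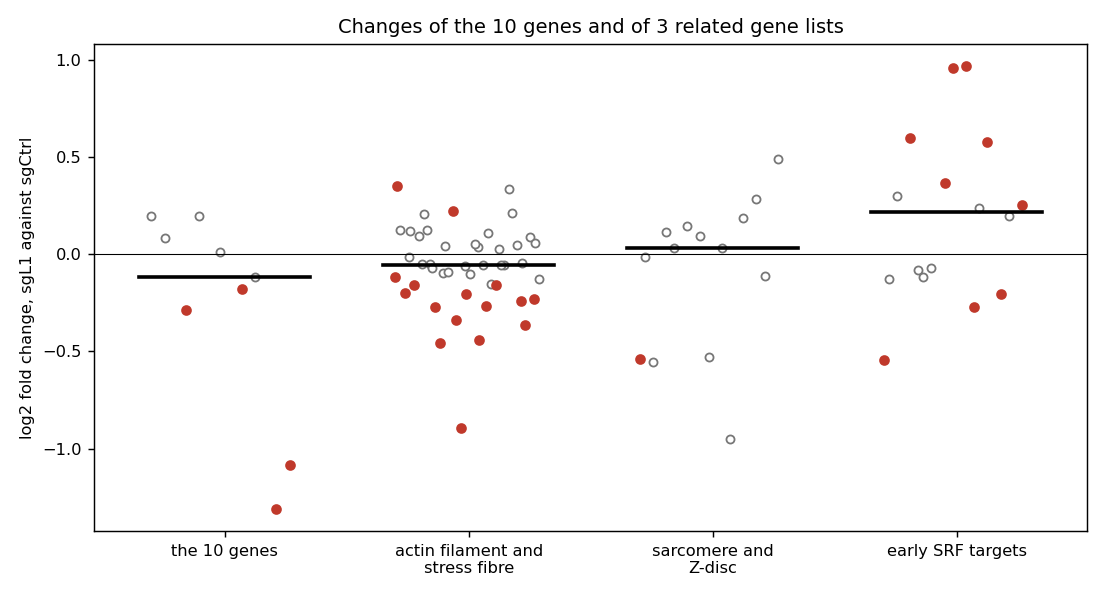
Log2 fold change of sgL1 against sgCtrl (vertical axis) for each tested gene of the 10 and of 3 related lists. Red points passed edgeR's test at an adjusted p under 0.05, open points did not, and bars are medians; among the actin filament genes 14 fell and 2 rose.

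Markers of muscle and stroma were few. Of 7 skeletal muscle markers MYOD1, MYOG, MYF5, MYF6 and PAX7 had 0 counts in every library, and MYH3 made up nearly all of a sum of 14.3 to 19.0 CPM in the controls and 13.9 to 16.9 CPM in sgL1. Of 6 smooth muscle markers MYH11, DES, ACTG2, LMOD1 and MYOCD stayed at or under 0.383 CPM, and SYNM made up nearly all of 32.3 to 34.8 CPM in the controls and 31.5 to 37.5 CPM in sgL1. Of 7 fibroblast markers COL1A2 and LUM had 0 counts, and the sum was 11.6 to 14.5 CPM in the controls and 15.8 to 20.6 CPM in sgL1. PDGFRB among them rose, with 0.67 on the log2 scale (edgeR adjusted p = 8.37e-04), and its part in the results above was not tested. Of the 4 tested markers of this cell line 1 rose and 1 fell. CD44 rose from 649.1 ± 11.7 CPM over the controls (SD, n = 3) to 821.0 ± 10.4 CPM over sgL1 (SD, n = 6) and AXL fell from 1289 ± 21.9 CPM over the controls (SD, n = 3) to 1084 ± 22.2 CPM over sgL1 (SD, n = 6), with 0.34 and -0.25 on the log2 scale (edgeR adjusted p = 2.71e-08 and 3.12e-06); both calls held with any 1 library left out. VIM, at 1285 to 1343 CPM in the controls and 1161 to 1263 CPM in sgL1, did not pass, nor did PGR, and CDH1 and ESR1 stayed at or under 0.251 and 0.622 CPM. Their part in the results above was not tested.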

How the data were processed

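RNA was extracted with TRIzol and made into Illumina libraries, per the labels' protocols. fastp 0.20.1, STAR 2.7.7a and featureCounts 2.0.0 with GRCh38 come from the submitters' processing notes; their settings, the annotation release and the use of strand were not given in the sources used here. The authors deposited whole-number counts per gene and FPKM. The deposited FPKM equal the counts times a constant per gene and per library, to a largest relative deviation of 6.88e-15. The 627 rows with no symbol (0.358% to 0.410% of a library's counts) were left out.

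Counts were tested with edgeR 4.0.16 in R 4.3.3 (filterByExpr, TMM, robust quasi-likelihood F test, no covariate, all 9 libraries), after the procedure was tested on simulated data. There it recovered 30% of 50 genes changed 1.2-fold and 62% of 50 changed 1.5-fold. At 2-fold and 3-fold it recovered 88% and 90%. Small changes such as most of those here can therefore be missed. SE and 95% intervals derive from the F statistic. Positions are from GENCODE, whose release need not be that of the counts. Alternatives were other scalings and filters, DESeq2 1.42.0, limma 3.58.1 (voom, and log2 FPKM with pseudocounts of 1 and 0.1), an adjusted p under 0.01, each library left out, sgL1 1 to 3 or 4 to 6 alone, and a replicate block.

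The 10 genes, lists and tests were chosen with earlier results of these data known. The rule for names took the 10 genes, their relatives, UFL1 and UFM1, up to 4 called genes of each list by smallest adjusted p, and the 2 genes nearest in pattern to each member called. Outside it, the other called genes of the lists, PDGFRB and the overlapping genes were named after their values were seen. A further list of genes and 1 gene of the actin list are not reported here.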

Additional observations from a re-analysis of the deposited data

How the results depend on the processing

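Of the 10 genes 4 fell, and 4 did under each scaling, each filter on counts, DESeq2 and sgL1 4 to 6 alone; limma-voom called 3. The number was 2 at an adjusted p under 0.01, 2 with sgL1 1 to 3 alone, and 0 with limma on log2(FPKM + 1), 0 on log2(FPKM + 0.1) and 0 on the first scale among genes averaging 1 FPKM or more, which leaves out MYPN and XIRP2. With each library left out it ranged from 2 to 4, lowest without sgCtrl 1. The number that rose was 0 in each of these. Over all genes 606 fell and 841 rose. At 0.01 these were 339 and 517, on log2(FPKM + 1) 265 and 397, on log2(FPKM + 0.1) 264 and 438, and 1054 fell with sgL1 1 to 3 alone. With libraries left out, 352 to 800 fell and 548 to 958 rose. Among the lists, falls of actin filament genes were 9 at 0.01 and 9 on both FPKM scales; their rises were 5 with sgL1 1 to 3 alone and 4 with the replicate block. Rises of early targets were 2 on both FPKM scales and their falls 5 with sgL1 4 to 6 alone. SRF turned to -0.111 with sgL1 4 to 6 alone and ranged from -0.0316 to 0.0412 with libraries left out, TAGLN from -0.0683 to 0.302, MRTFA from -0.0644 to 0.0588 and MRTFB from -0.0602 to 0.0315; with sgL1 4 to 6 alone MRTFA was -0.053 and MRTFB 0.0309. The cause was not tested. For libraries with the same number, deviations from the group means gave r = 0.0166, -0.191 and 0.0392 across genes, which are not independent. The sgL1 deviations were taken from the mean of all sgL1 libraries, so they include any difference between sgL1 1 to 3 and 4 to 6. Whether the numbers pair the libraries therefore cannot be told from these values. With the replicate block, in which sgL1 4 to 6 have no control of their number and do not bear on the contrast, 2 of the 10 genes fell, MYPN and XIRP2, and 827 of all genes fell and 1028 rose. Depth limits CNN1, MYPN, XIRP2, TAGLN and ACTA2 most.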

Other observations

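The genes nearest in pattern to the 4 members that fell were found among 10684 uniquely named genes averaging at least 5 CPM, by the root-mean-square difference of centred log2 CPM over the 9 libraries. This is a description with no test, since all share the contrast between the groups. For MYPN they were PDE1C, a phosphodiesterase gene (difference 0.27), and ATP8B1, a phospholipid flippase gene (0.41), beside a spread of 0.74 of MYPN itself. PDE1C measured 8.26 ± 1.29 CPM over the controls (SD, n = 3) and 3.85 ± 0.518 CPM over sgL1 (SD, n = 6). ATP8B1 measured 30.2 ± 1.42 CPM over the controls (SD, n = 3) and 16.3 ± 1.03 CPM over sgL1 (SD, n = 6). For XIRP2 they were AC103718.1 (0.38) and FAT3, an atypical cadherin gene (0.38), beside a spread of 0.69. FAT3 measured 57.5 ± 3.22 CPM over the controls (SD, n = 3) and 26.9 ± 2.75 CPM over sgL1 (SD, n = 6). For CNN2 they were MGLL, which encodes monoacylglycerol lipase (0.034), and the phosphatase gene PTPN23 (0.035), beside a spread of 0.11. For MYL9 they were DENND3 (0.064) and TIMM17B, of the mitochondrial import machinery (0.076), beside a spread of 0.19.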
